A study of Mus musculus with 4 samples.

Results

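Genes that build, coat and break down triglyceride were examined in the inguinal mammary gland of 10-day-old mice. The listed members were the assembly genes Gpam, Agpat2, Lpin1, Dgat1 and Dgat2, the glycerol supply gene Pck1, the droplet coat genes Plin1 and Cidec, and the lipase genes Pnpla2 and Lipe. They were chosen by name, and every probe set assigned to 1 of them alone was read. Of the 10 members 7 had such a probe set, out of 17097 genes that had one, and these 7 had 12 probe sets in all. Agpat2, Plin1 and Cidec were not analysed here, so the droplet coat group has no measured member.

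The wild-type group was Mt1-mmp(+/+) and the knockout group Mt1-mmp(-/-), with 2 arrays each, both at postnatal day 10. Mt1-mmp, listed on the array as Mmp14, encodes a collagen-cutting protease anchored in the cell membrane, and the knockout is global, so every cell type of the gland lacks it. The mice were littermates of an outbred Swiss Black stock, and no treatment is named. Whole glands were homogenised, which mixes fat, epithelium, vessels, nerve and immune cells. The labels call the arrays of a group biological replicates but do not say whether an array holds 1 animal or several, so p-values measure the spread between these samples. The knockout arrays differed from each other in tissues that lie near the gland. The mean over 12 skeletal muscle markers was 4.89 and 6.98 for the wild-type pair and 4.88 and 10.7 for the knockout pair. The mean over 11 epidermis and hair follicle markers was 5.64 and 6.58 for the wild-type pair and 9.08 and 4.86 for the knockout pair. The members' differences and calls were therefore also computed without each of these arrays, while genes outside the member list are given with all 4 arrays.

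At this age the mammary epithelium is a small tree within a large fat pad, and the fat cells of that pad store triglyceride. Triglyceride is made by adding fatty acids to glycerol phosphate one after another. Gpam encodes the mitochondrial enzyme that adds the first fatty acid, Agpat2 the enzyme that adds the next, Lpin1 the phosphatase that removes the phosphate, and Dgat1 and Dgat2 a pair of unrelated enzymes that add the last fatty acid. Pck1 encodes the cytosolic PEP carboxykinase, which lets fat cells make glycerol phosphate without glucose. Plin1 and Cidec coat the single large droplet of a white fat cell. Pnpla2 encodes adipose triglyceride lipase, which starts the breakdown, and Lipe encodes hormone-sensitive lipase, which acts on the diglyceride that remains.

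Promoter sequence is shown for Lpin1, a storage gene, and for Lipe, a release gene, because these stand on the opposite sides of the comparison and both had bright probe sets. The storage gene Gpam, with a brighter probe set than Lpin1, meets the same terms and is not printed. The RefSeq promoter table of the build GRCm38.p6 matched 8 of the 10 members, all but Dgat1 and Dgat2. The 250 bases before each annotated start are printed 5′ to 3′ on the gene's strand, all on the minus strand of the genome, with motif matches in capitals. Lpin1 has 1 annotated start in that table, at chr12:16610967-16611216, and Lipe has 2, at chr7:25395988-25396237 and chr7:25390113-25390362.
Lpin1: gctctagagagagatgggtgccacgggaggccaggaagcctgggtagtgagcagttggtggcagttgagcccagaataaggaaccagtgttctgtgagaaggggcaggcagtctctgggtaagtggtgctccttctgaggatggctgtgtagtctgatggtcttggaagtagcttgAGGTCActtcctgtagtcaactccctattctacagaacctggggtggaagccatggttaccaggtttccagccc
Lipe, upstream start: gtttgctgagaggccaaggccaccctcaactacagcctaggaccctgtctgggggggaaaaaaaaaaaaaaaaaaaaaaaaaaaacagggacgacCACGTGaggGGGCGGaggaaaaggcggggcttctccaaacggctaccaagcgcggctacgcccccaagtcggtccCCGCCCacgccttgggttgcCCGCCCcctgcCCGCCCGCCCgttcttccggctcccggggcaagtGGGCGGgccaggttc
Lipe, downstream start: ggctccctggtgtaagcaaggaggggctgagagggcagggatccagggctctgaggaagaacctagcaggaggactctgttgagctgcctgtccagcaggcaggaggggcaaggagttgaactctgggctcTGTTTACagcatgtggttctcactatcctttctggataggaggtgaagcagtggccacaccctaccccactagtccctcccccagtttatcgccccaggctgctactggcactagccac
The motifs searched, on both strands, were the E-box CACGTG, the sterol response element TCACNCCAC, the C/EBP palindrome TTGCNNAA, the forkhead site TGTTTAC, the CRE core TGACG, the nuclear receptor motif AGGTCA, the inverted CCAAT box ATTGG and the GC box GGGCGG. Lpin1 held a single match, a nuclear receptor motif beginning 74 bases before the start, and 14% of all 32851 promoters of the table hold that motif in the same window. The upstream Lipe promoter held 1 E-box, found in 6.02% of promoters, and 6 GC boxes, a motif of which at least 1 stands in 32.7%. A pair of those GC boxes overlap, at 49 and 45 bases before the start. The downstream Lipe promoter held 1 forkhead site at 119 bases before the start, found in 3.17%. None of these 3 windows held the sterol response element, present in 1.05% of promoters. Gpam, not printed, held an inverted CCAAT box before 1 start. Before its other start it held 2 CRE cores, a nuclear receptor motif and a GC box. All these matches describe letters only and were not tied to the array values.

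Dgat2 had by far the greatest difference among the 7 measured members, and it was lower in the knockout. Its brightest probe set, 1422678_PM_at, read 11.8 and 11.7 (log2) for the wild-type pair and 9.40 and 9.78 for the knockout pair. Both knockout arrays thus lay far below both wild-type arrays, while arrays of the same genotype lay 0.12 and 0.38 apart. Expressed in log2 units the difference was -2.19 ± 0.17 (limma SE, n = 2 per group), or 4.58-fold lower. The second probe set of Dgat2, 1422677_PM_at, read 10.5 and 10.4 against 7.77 and 7.48, which is 7.01-fold lower (-2.81 ± 0.15). The lower of the knockout arrays was replicate 1 in the brighter set and replicate 2 in the other.

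The limma p of the brighter Dgat2 set was 0.101 after Benjamini-Hochberg adjustment over all 11078 tested genes and did not pass 0.05. Of those genes 0% passed, and the smallest adjusted p among them was 0.0738. In a fit over all probe sets the adjusted p-values of the Dgat2 sets were 0.0762 and 0.0595. By size the Dgat2 difference was 29th among all tested genes counted from the most negative, and 0.325% of tested genes were at least 4-fold lower without overlap between the groups. The adjusted p of the brighter set dropped to 0.00515 when knockout replicate 1 was left out and to 0.0216 when knockout replicate 2 was, in fits that take the spread from the wild-type pair alone. Over all genes the fit without knockout replicate 1 called 2725 lower and 1455 higher and the fit without knockout replicate 2 called 553 lower and 746 higher, so passing there was not particular to Dgat2. It was 0.782 without wild-type replicate 1 and 0.834 without wild-type replicate 2.

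**Figure D1:**
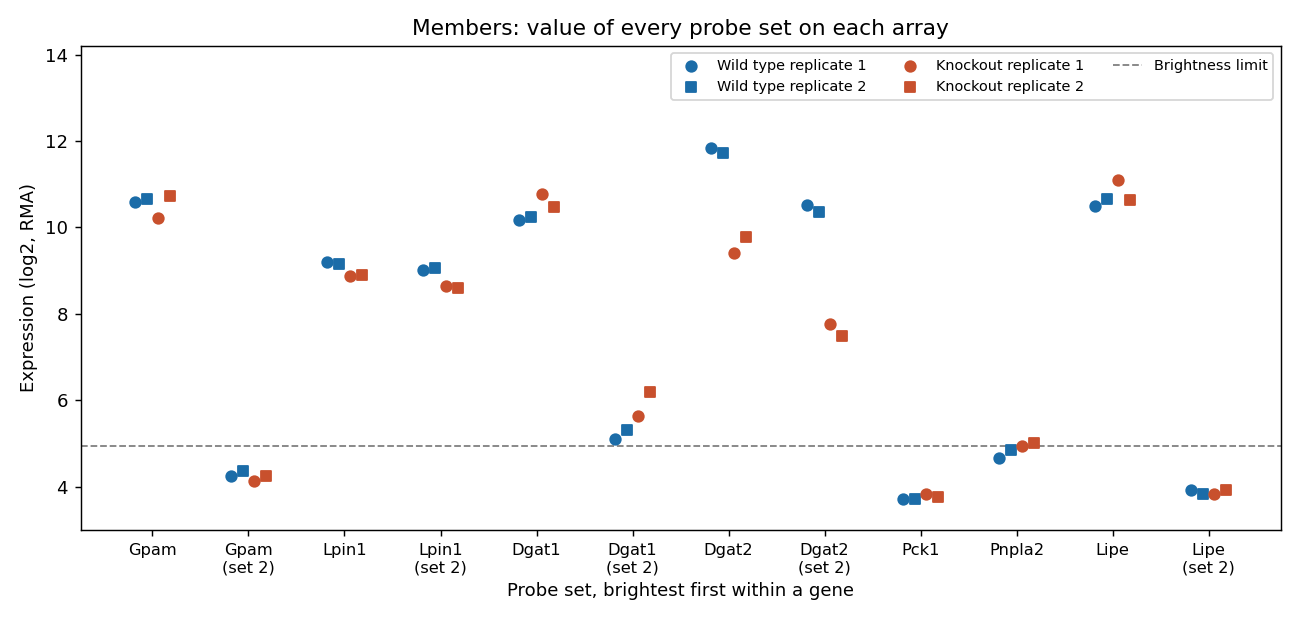
Expression (log2, RMA) of every single-gene probe set of the 7 measured members on each of the 4 arrays, with circles for replicate 1, squares for replicate 2 and a dashed line at the brightness limit of 4.94. Both Dgat2 probe sets are lower in both knockout arrays, and the sets of Pck1 and Pnpla2 lie near or below the limit.

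Dgat1, which encodes the enzyme for the same last step, was higher in both knockout arrays. Its brightest probe set, 1418295_PM_s_at, read 10.2 and 10.2 for the wild-type pair and 10.8 and 10.5 for the knockout pair. The groups did not overlap, but the gap between the knockout arrays, 0.30, was close to the difference of 0.42 ± 0.14 (1.34-fold, limma adjusted p = 0.213). A dimmer set, 1445229_PM_at, also read higher in both knockout arrays, with 5.10 and 5.32 against 5.63 and 6.19, a difference of 0.70 ± 0.23 (adjusted p = 0.205 in the fit over all probe sets). With 1 array left out the adjusted p of the brighter set was 0.0373 without knockout replicate 2, 0.068 without knockout replicate 1, and 0.863 and 0.851 without wild-type replicates 1 and 2. The Dgat2 minus Dgat1 difference, taken from each array's brightest sets and set to 0 at the wild-type mean, was 0.09 and -0.09 for the wild-type pair and -2.96 and -2.28 for the knockout pair. The pair of genes for the last step therefore differed in opposite directions in both knockout arrays, with a mean of -2.62 for Dgat2 minus Dgat1. That contrast was not tested, because the genes were chosen with earlier results of these data known.

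Lpin1, which encodes lipin 1, was slightly lower in both knockout arrays in both of its probe sets. The brighter set, 1426516_PM_a_at, read 9.20 and 9.17 for the wild-type pair and 8.88 and 8.90 for the knockout pair, a difference of -0.29 ± 0.09 (limma adjusted p = 0.197). The other set, 1418288_PM_at, read 9.03 and 9.07 against 8.64 and 8.59, a difference of -0.43 ± 0.09 (adjusted p = 0.136 in the fit over all probe sets). Arrays of the same genotype lay at most 0.05 apart in either set, so the difference was several times that gap although it was only 1.23-fold and 1.35-fold.

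Gpam, the gene for the first step, showed no consistent direction. Its brightest set, 1419499_PM_at, read 10.6 and 10.7 for the wild-type pair and 10.2 and 10.7 for the knockout pair. Knockout replicate 1 was the lowest array and knockout replicate 2 the highest, so the groups overlapped. The difference was -0.15 ± 0.20 with a 95% interval from -0.71 to 0.41 (limma adjusted p = 0.683), and it was 0.10 without knockout replicate 1. A dim set, 1425834_PM_a_at, ran from 4.14 to 4.36 on the 4 arrays, below the brightness limit.

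Pck1, the glycerol supply gene, was represented by a single dim probe set, 1455209_PM_at, with 3.71 and 3.71 for the wild-type pair and 3.84 and 3.77 for the knockout pair. These values lie well below the limit of 4.94, the median over all probe sets, where RMA compresses differences. The gene was not tested, and its difference of 0.09 cannot be read as a level of Pck1 in the gland.

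Lipe, the release gene that could be tested, had overlapping groups. Its bright probe set, 1422820_PM_at, read 10.5 and 10.7 for the wild-type pair and 11.1 and 10.6 for the knockout pair. Knockout replicate 1 was above both wild-type arrays and knockout replicate 2 lay between them. The difference was 0.28 ± 0.19 with a 95% interval from -0.26 to 0.83 (limma adjusted p = 0.443), and a dim second set, 1432180_PM_at, differed by -0.003. Pnpla2 was measured by 1 dim set, 1428591_PM_at, which read 4.66 and 4.86 for the wild-type pair and 4.94 and 5.02 for the knockout pair. Both knockout arrays were above both wild-type arrays, but the nearest values of the groups were closer together than the wild-type pair, which lay 0.19 apart. The mean of 4.87 missed the brightness limit, so Pnpla2 was not tested.

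**Figure D2:**
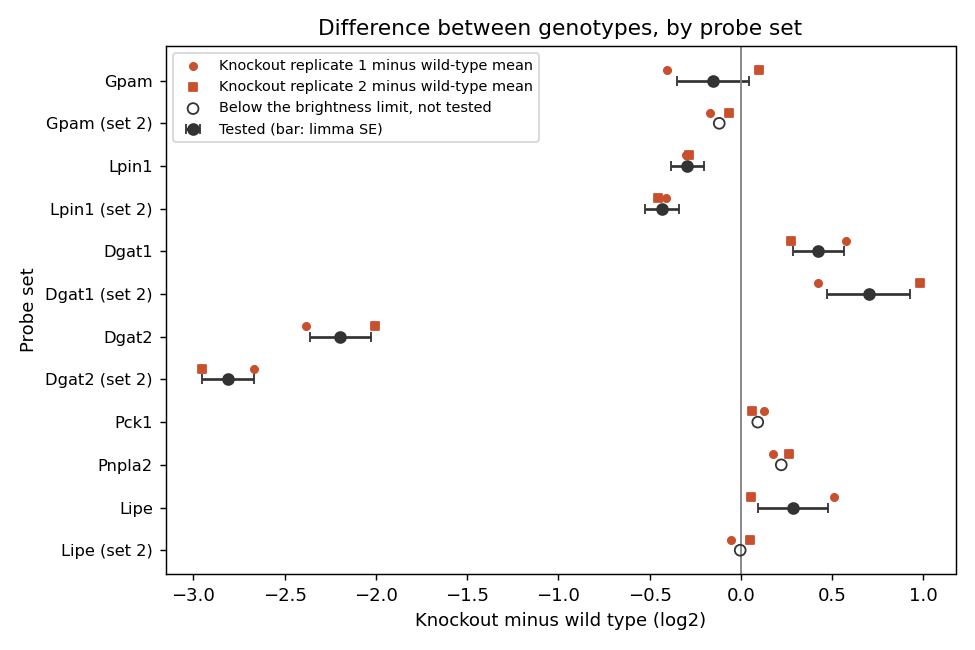
Knockout minus wild-type difference (log2) of each member probe set, with filled points and limma SE bars for tested sets, open points for sets below the brightness limit and small red marks for each knockout array minus the wild-type mean. The Dgat2 sets lie at -2.19 and -2.81, and the other tested sets between -0.43 and 0.70.

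Of the 5 members bright enough to test, limma called 0 lower and 0 higher at an adjusted p under 0.05. At an unadjusted p under 0.05 there were 2 lower, Dgat2 and Lpin1, and 1 higher, Dgat1, where 12.1% and 9.69% of all tested genes were lower and higher. The groups did not overlap for the same 3 genes, where 32.5% of all tested genes were lower without overlap and 26.3% higher. The shares without overlap are so large that those member counts are near what the whole array shows. The unadjusted counts are larger shares of the 5 tested members than of all tested genes. They rest on 5 genes chosen with earlier results of these data known. The median difference was -0.15 over the 5 tested members, -0.02 over all tested genes and 0.09 over all 7 measured members.

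Storage genes were then set against release genes. For each array the value of each gene minus its wild-type mean was averaged over the 5 measured storage members, Gpam, Lpin1, Dgat1, Dgat2 and Pck1, and over the 2 release members, Pnpla2 and Lipe. The storage mean was 0.002 and -0.002 for the wild-type pair and -0.48 and -0.37 for the knockout pair. The release mean was -0.09 and 0.09 for the wild-type pair and 0.35 and 0.16 for the knockout pair. As averages, storage was thus below and release above the wild-type mean in both knockout arrays. In knockout replicate 2 the release average came mostly from the dim, untested Pnpla2, at 0.27. Lipe stood at 0.06 in that array, between the wild-type arrays. The storage minus release value was -0.82 and -0.53 in the knockout pair, against 0.09 and -0.09 in wild type.

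The storage value rested on Dgat2. Without Dgat2 the remaining 4 storage members averaged -0.01 and 0.01 for the wild-type pair and -0.0009 and 0.04 for the knockout pair, so their mean difference was only 0.02. Storage without Dgat2 minus release was -0.35 and -0.12 in the knockout against 0.08 and -0.08 in wild type, a difference of -0.24, compared with -0.68 with Dgat2. Pck1 and Pnpla2 are dim, and with bright members alone the value was -0.84, in which release is Lipe by itself. No p is given for these averages, since their members were chosen with earlier results of these data known.

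**Figure D3:**
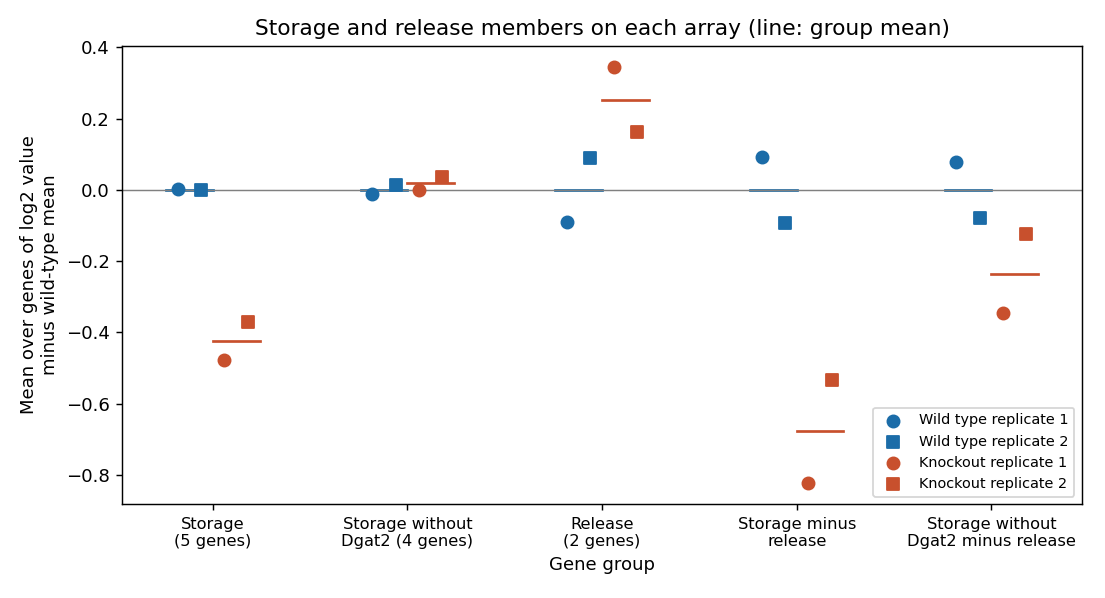
Mean over genes of the log2 value minus the wild-type mean, for storage and release members on each array, with a short line at each group mean. The knockout storage mean is -0.42 with Dgat2 and 0.02 without it, and the knockout release mean is 0.25.

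Other genes of glycerol phosphate supply and acylation went both ways. Of 14 listed genes 13 were measured and 10 tested, of which limma called 0 lower and 0 higher, with 1 lower and 2 higher at an unadjusted p under 0.05 (12.1% and 9.69% of all tested genes). Without overlap between groups 3 were lower and 3 higher, where 32.5% and 26.3% of all tested genes were, and the median difference was -0.14. Gpd1, which makes glycerol phosphate from a sugar intermediate, read 11.2 and 11.3 for the wild-type pair and 10.7 and 9.89 for the knockout pair (-0.95 ± 0.31, limma adjusted p = 0.207). The other tested sets of Gpd1 differed by -1.42 and -0.26. Aqp7, the channel that lets glycerol leave fat cells, read 10.2 and 10.4 against 11.1 and 11.1 (0.79 ± 0.13, adjusted p = 0.117), but its other probe set differed by only 0.06. Gpat3, which encodes another enzyme for the first acylation, differed by 0.33 and Agpat5 by -0.29, so neither followed Dgat2 in size.

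Among other lipid droplet genes 10 of 10 were measured and 9 tested, with limma calling 0 lower and 0 higher, and 3 lower and 1 higher at an unadjusted p under 0.05 (12.1% and 9.69% of all tested genes). There were 4 lower and 1 higher without overlap (32.5% and 26.3% of all tested genes), and the median difference was -0.20. Cidea, a droplet protein of brown fat, read 11.7 and 11.8 for the wild-type pair and 10.8 and 9.71 for the knockout pair (-1.48 ± 0.41, limma adjusted p = 0.179). Plin5, a coat protein of tissues that burn fat, differed by -0.83 ± 0.20 and by -0.94 in its second set. Plin3, a widely expressed coat protein, differed by -0.33, and Fitm2, which helps droplets form, by 0.39. The coat genes Plin2 and Plin4, named here after their values were seen because Plin1 and Cidec were not analysed, differed by -0.16 and -0.10 with overlapping groups. Fitm1, the muscle relative of Fitm2 and also singled out afterwards, read 5.11 and 5.27 for the wild-type pair and 4.81 and 7.76 for the knockout pair, and the high value is in the array with muscle markers at 10.7. The part of muscle in it was not tested.

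Other genes of release also went both ways. Of 10 listed genes 10 were measured and 9 tested, of which limma called 0 lower and 0 higher, and 1 lower and 1 higher at an unadjusted p under 0.05 (12.1% and 9.69% of all tested genes). There were 4 lower and 2 higher without overlap (32.5% and 26.3% of all tested genes), and the median difference was -0.13. G0s2, the protein inhibitor of Pnpla2, read 11.2 and 11.1 for the wild-type pair and 9.66 and 9.70 for the knockout pair, a difference of -1.48 ± 0.10 (2.79-fold lower, limma adjusted p = 0.0937). Pnpla3, a relative of Pnpla2 that acts on droplets, read 8.90 and 9.03 against 8.40 and 6.32 (-1.60 ± 0.75). Mgll, which completes the breakdown by splitting the monoglyceride, differed by -0.33, with -0.26 and -0.36 in its other bright sets. Ces1f, a carboxylesterase gene, was higher by 1.73 ± 0.28 (adjusted p = 0.117), but it belongs to a cluster of near-identical genes and the signal may include its paralogs. When all these genes were averaged with Pnpla2 and Lipe, the storage minus release difference was -0.38. That average counts G0s2 as a release gene although its protein inhibits release, and the difference was -0.52 without G0s2 and -0.63 with its sign turned, both added after the data were seen.

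**Figure D4:**
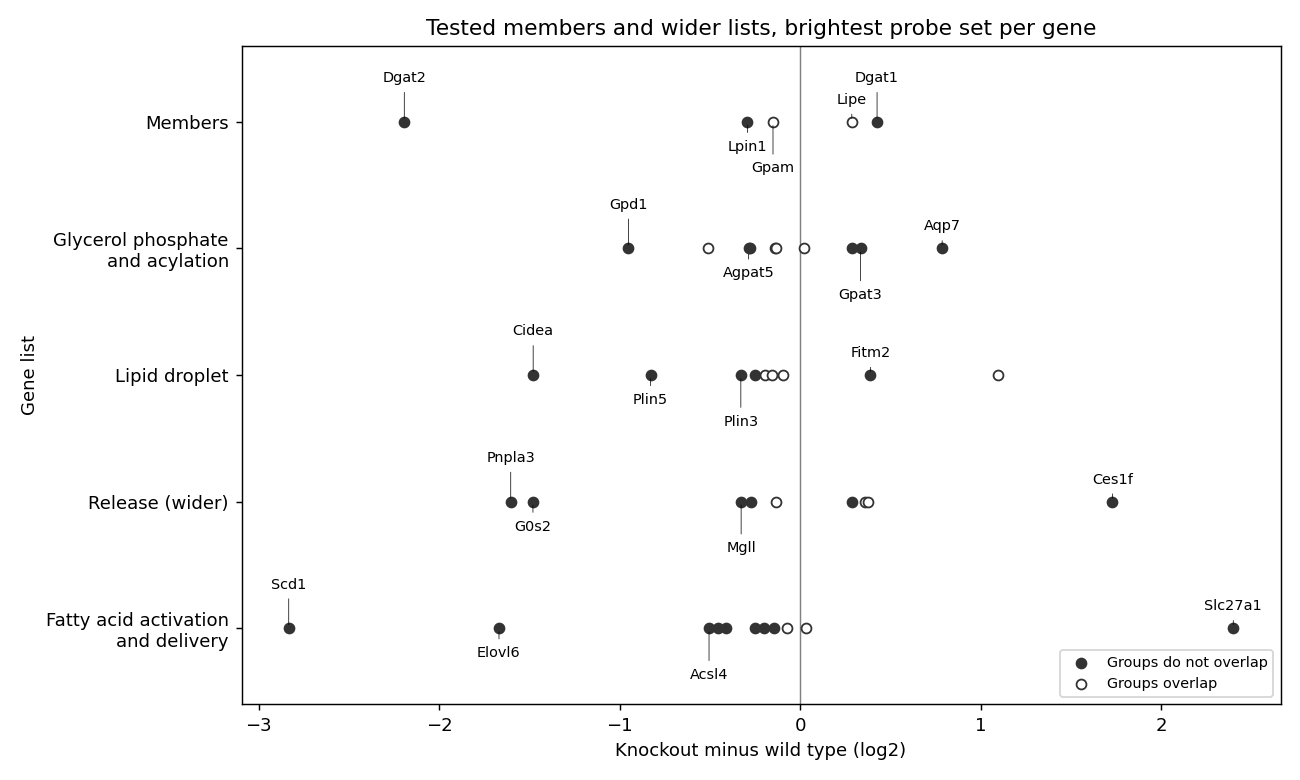
Knockout minus wild-type difference (log2) of the tested members and of the tested genes of 4 wider lists, 1 point per gene, filled where the groups do not overlap. Dgat2 is the lowest member at -2.19, and each wider list holds genes on both sides of 0.

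The array profile of Dgat2 was compared with that of every other tested gene by the Euclidean distance between log2 values centred on the mean of the 4 arrays. The nearest genes were D130051D11Rik at a distance of 0.13, Zfp971 at 0.38, the interferon-induced gene Rsad2 at 0.42, the secretory pathway kinase gene Fam20c at 0.47 and Ppp1r3b, which encodes a glycogen-targeting phosphatase subunit, at 0.47. All 5 were lower in both knockout arrays, with differences from -2.60 to -1.81, which is what the distance selects for. With 4 arrays in 2 groups such likeness mostly says that a gene has a Dgat2-sized gap between genotypes and small gaps within them.

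Fat cell markers were present in all arrays, and those of white fat other than Lep were nearly level. The fat cell hormone gene Adipoq read 13.1 and 13.1 for the wild-type pair and 13.3 and 13.0 for the knockout pair. The array mean over 9 of 11 white adipocyte markers was 11.7 and 11.7 for the wild-type pair and 11.3 and 10.8 for the knockout pair. Without the leptin gene Lep, left out after its difference of -5.00 was seen, the mean of the other 8 was 11.8 and 11.8 against 11.8 and 11.6, and their differences ran from -0.21 to 0.28. Several of these genes read near the top of the arrays, 13.6 to 13.7, where differences can be compressed too. The mean over 8 of 8 brown adipocyte markers was lower, 9.49 and 9.48 against 8.62 and 7.98. Without overlap 7 of the brown markers were lower and 0 higher, and 4 of the 9 white markers were lower and 1 higher. Of all tested genes 32.5% were lower without overlap and 26.3% higher. The greatest brown marker difference was in Ucp1, -3.11, which read 12.1 and 11.9 against 10.4 and 7.37 (limma adjusted p = 0.228). Its knockout arrays lay 3.08 apart, and the lower was the one with muscle markers at 10.7. The part of muscle in it was not tested. In whole glands fewer cells of a type and less RNA per cell cannot be told apart, and the part that brown fat cells have in the Dgat2 difference was not tested.

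The muscle and skin markers that set the knockout arrays apart were then read beside the members. Relative to the wild-type mean Dgat2 stood at -2.38 in knockout replicate 1 and at -2.00 in knockout replicate 2. Muscle markers averaged 4.88 and 10.7 in these arrays, against 4.89 and 6.98 for the wild-type pair. Skin markers averaged 9.08 and 4.86, against 5.64 and 6.58. The part of muscle or skin in the Dgat2 difference was not tested. Of the small member differences, those of Dgat1, Gpam and Lipe were unequal between the knockout arrays, at 0.58 and 0.27, -0.40 and 0.10, and 0.51 and 0.06, and the part of muscle or skin in them was not tested. Lpin1 differed by -0.30 and -0.28 in the same arrays, and the part of muscle or skin in it was not tested either. Mammary epithelium markers averaged 7.52 and 6.72 against 8.55 and 7.67. In that list Krt14 differed most, standing 2.81 and 0.55 above the wild-type mean in knockout replicates 1 and 2. Elf5 differed least, at 0.78 and 0.39. The part of skin in the epithelium markers was not tested. Macrophage markers averaged 7.74 and 7.99 against 7.39 and 7.53, and liver markers 5.37 and 5.47 against 5.70 and 5.82. Of the liver markers Cyp2e1 differed by 2.28, and the other 4, set apart after this was seen, averaged 4.77 and 4.77 against 4.70 and 4.54. The targeted gene Mmp14 read 8.92 and 8.73 for the wild-type pair and 5.83 and 5.68 for the knockout pair, and its dimmer set 6.11 and 5.87 against 4.32 and 4.31. Whether either set lies in the deleted part is not given.

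**Figure D5:**
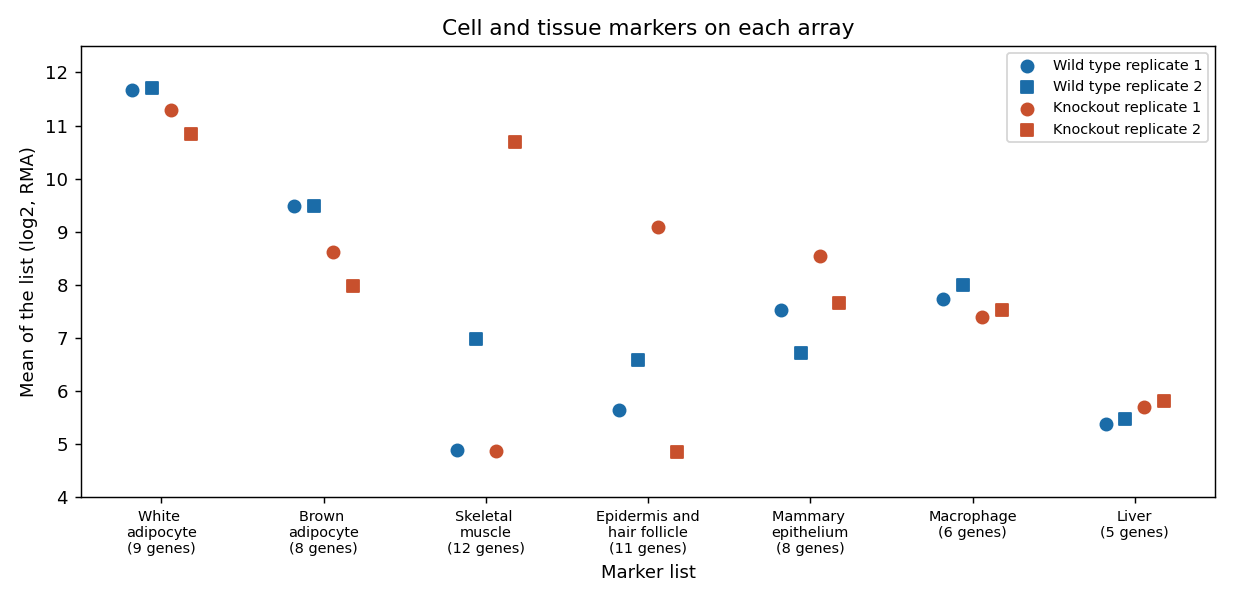
Mean log2 expression of 7 marker lists on each array, with circles for replicate 1 and squares for replicate 2. Brown adipocyte markers are lower in both knockout arrays, while muscle markers are high in knockout replicate 2 and skin markers in knockout replicate 1.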

How the data were processed

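RNA from 4 glands or gland pools was labelled from the transcript's 3′ end and hybridised to Affymetrix mouse arrays, 1 array per sample, per the labels' protocols. The authors deposited log2 expression values made with RMA (R package affy), as the submitters' processing notes state. The log2 scale was read from the values, and no version is given. RMA equalises the arrays, so a shift shared by most genes cannot be seen. Precision is limited by the number of arrays, and no detection calls were applied.

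Of 45141 probe sets 28898 name 1 gene. Each gene was represented by its brightest probe set (mean of the 4 arrays), and a gene was tested where that mean reached 4.94, the median of all probe sets. The genotype test was limma 3.58.1 under R 4.3.3 (lmFit, eBayes, no covariate) with Benjamini-Hochberg adjustment over all tested genes at 0.05. A fit over all probe sets gave the values of further sets. The test was checked on simulated data. Alternatives covered the choice of probe set, the filter, scaling, the prior, array weights, a replicate block, each array left out in turn and other thresholds.

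The members, lists, motifs and rules were chosen with earlier results of these data known. All members and Mmp14 were named, the 5 genes nearest in profile to the member with the greatest difference, and from each wider list the 4 genes with the greatest difference among those without overlap. Others are said to be named afterwards. Gene names come from the array annotation, and 28689 identifiers matched RefSeq genes.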

Additional observations from a re-analysis of the deposited data

How the results depend on the processing

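Dgat2 was lower under all 16 alternatives that gave it a value, by 2.00 to 2.50 on the log2 scale, with limma adjusted p-values from 0.00515 to 0.834. Dgat1 stayed higher (0.27 to 0.70), Lpin1 lower (-0.43 to -0.22) and Lipe higher (0.06 to 0.51) under the same 16. Gpam ran from -0.40 to 0.10, the positive value being that without knockout replicate 1. Many of these alternatives, among them the filters, the prior, array weights and the replicate block, returned the same differences as the main fit. They keep the probe set and the group means, so only the p could change and the direction was fixed in advance. With all 4 arrays 0 members passed. Leaving out 1 array gave 0 to 1 members called lower, 1 being Dgat2 without either knockout array, and 0 to 1 called higher, which was Dgat1 without knockout replicate 2. Over all genes the same leave-outs gave 0 to 2725 lower and 0 to 1455 higher. Limma called 10 lower and 7 higher at an adjusted p under 0.10, 1337 lower and 1074 higher at an unadjusted p under 0.05, and 1 lower when every probe set was tested on its own. Storage minus release was -0.68 and ran from -0.82 to -0.53 with 1 array left out. It was -0.41 with the median over genes and -0.38 with the wider release list, which counts the lipase inhibitor gene G0s2 as release. Without G0s2 it was -0.52 and with its sign turned -0.63, 2 alternatives added after the data were seen. The other alternatives for it stayed within the spread between replicates, 0.17, including the one with bright members only, which was also added afterwards. Leaving out Plin1 and Cidec could not change it, because neither was measured. Testing every probe set on its own, no filter, median centring, array weights and the replicate block also returned exactly the main value. These keep the group means or shift whole arrays, which cancels in storage minus release, so they do not bear on its stability.

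Genotypes share replicate numbers 1 and 2, but the labels do not say what a number marks. Across tested genes the replicate 1 minus 2 differences of the genotypes correlated at -0.09. This value rests on 1 such difference per genotype, between arrays that also differ in muscle and skin markers. It therefore cannot decide whether the numbers mark a pairing. With the replicate block Dgat2 had a difference of -2.19 and an adjusted p of 0.227, and 0 genes were called lower and 0 higher.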

Other observations

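Genes that activate and deliver fatty acids, the substrate of the assembly enzymes, were read in the same way. Of 12 listed genes 11 were measured and tested, and limma called 0 lower and 0 higher, and 3 lower and 1 higher at an unadjusted p under 0.05, where 12.1% and 9.69% of all tested genes were. There were 8 lower and 1 higher without overlap, where 32.5% and 26.3% of all tested genes were, and the median difference was -0.25. Slc27a1, which encodes a fatty acid transport protein, read 7.79 and 7.73 for the wild-type pair and 9.85 and 10.5 for the knockout pair, a difference of 2.40 ± 0.23 (SE, n = 2 per group, limma adjusted p = 0.101). Its second probe set was higher by 2.71. Scd1, which encodes the desaturase that makes monounsaturated fatty acids, read 13.2 and 13.3 against 11.3 and 9.56 (-2.83 ± 0.64, adjusted p = 0.149), and its dimmer set read 8.88 and 8.86 against 4.99 and 4.56. The elongase gene Elovl6 read 8.98 and 8.83 against 8.15 and 6.31 (-1.67 ± 0.66), and the acyl-CoA synthetase gene Acsl4 differed by -0.51. The second tested set of Acsl4 differed by -0.26 with overlapping groups. Scd1 and Elovl6 were lowest in knockout replicate 2, where muscle markers averaged 10.7, and the part of muscle in these values was not tested. Lpl, Cd36, Fabp4 and Fabp5, named after their values were seen, encode the lipase, the receptor and a pair of carriers that bring fatty acids into and through fat cells. They differed by -0.20, -0.15, -0.07 and -0.45, without overlap between the groups except for Fabp4.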
